A study of Rattus norvegicus with 2 samples.

Results

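The genes of the rat major histocompatibility complex (MHC) and of the steps that load it with peptide were examined in single-cell RNA sequencing (scRNA-seq) of the cochlear duct. The set held every gene whose symbol starts with RT1-, the name of the rat MHC, together with B2m, Cd74, Tap1, Tap2, Tapbp, Psmb8, Psmb9, Psmb10, Nlrc5 and Ciita, and came to 41 of the 32623 genes listed. It was made up of 2 class Ia genes, 19 class Ib genes, 10 class II genes and 10 genes without the RT1 prefix. The tissue was the cochlear duct of Sprague-Dawley rats at post-natal day 1 (P1) and post-natal day 7 (P7), pooled from several rats per age, untreated, cut up and dissociated with collagenase, papain and DNase, and run as 1 droplet library per age on the 10x 3′ kit. Sprague-Dawley is an outbred stock, so a pool can hold several MHC haplotypes. With 1 library per age there is no replicate check, age and library cannot be told apart, and no test was run. The intervals printed are exact 95% counting intervals, which say nothing of the spread between animals.

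MHC class I molecules sit on nearly all nucleated cells and show peptides from inside the cell to CD8 T cells and natural killer cells. A class I molecule is a heavy chain, here an RT1 class I gene, paired with the light chain beta-2-microglobulin (B2m), and its peptides are cut by the proteasome, carried into the endoplasmic reticulum by the Tap1 and Tap2 transporter and loaded with the help of tapasin (Tapbp). MHC class II molecules are alpha and beta chain pairs that are largely kept to antigen-presenting cells such as macrophages, dendritic cells and B cells, where the invariant chain Cd74 guards them until they receive peptides from outside the cell. Nlrc5 and Ciita are the regulators that switch on class I and class II genes. The cochlea holds resident macrophages and the vessels of the stria and spiral ligament, beside neurons, glia, epithelium and a large mesenchyme. Per the study, spiral ganglions, spiral ligament and stria vascularis were separated from the duct by microdissection before dissociation. How many cells of those parts remained in the libraries was not tested.

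The upstream sequences of the genes the results turn on are printed so that the class II genes, found together in few cells, can be set beside class I genes with other distributions. The 120 bases before the transcription start are given, 5′ to 3′ on the strand of the gene, from RefSeq on the build GRCr8, which is not the build the reads were aligned to. Capitals mark the core of the Y box, an element bound by the factor NF-Y and known from MHC promoters, which reads TGATTGG on one strand and CCAATCA on the other. The class II windows lie at chr20:4515295-4515414 on the plus strand, chr20:4560163-4560282 on the minus strand, chr20:4576937-4577056 on the plus strand and chr20:4604119-4604238 on the minus strand:
RT1-Da: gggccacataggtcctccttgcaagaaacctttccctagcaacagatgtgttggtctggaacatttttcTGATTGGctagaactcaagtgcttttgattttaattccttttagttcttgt
RT1-Db1: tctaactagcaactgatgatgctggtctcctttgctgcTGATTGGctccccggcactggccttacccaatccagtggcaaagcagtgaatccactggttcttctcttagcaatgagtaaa
RT1-Ba: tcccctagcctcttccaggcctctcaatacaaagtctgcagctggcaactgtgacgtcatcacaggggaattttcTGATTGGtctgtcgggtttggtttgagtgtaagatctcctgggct
RT1-Bb: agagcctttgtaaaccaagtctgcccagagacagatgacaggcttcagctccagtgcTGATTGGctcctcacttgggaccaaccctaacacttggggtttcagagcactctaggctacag

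The class I windows are of a class Ia gene with its highest level in macrophages, of the most abundant heavy chain and of a heavy chain with its highest level in endothelium. They lie at chr20:4872751-4872870 on the plus strand, chr20:3509157-3509276 on the minus strand and chr20:2723005-2723124 on the plus strand:
RT1-A2: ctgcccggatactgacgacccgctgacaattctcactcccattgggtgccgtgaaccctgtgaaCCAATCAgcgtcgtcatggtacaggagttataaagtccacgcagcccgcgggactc
RT1-CE4: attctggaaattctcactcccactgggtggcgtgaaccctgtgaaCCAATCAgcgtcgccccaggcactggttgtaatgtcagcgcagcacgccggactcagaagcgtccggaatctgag
RT1-T24-3: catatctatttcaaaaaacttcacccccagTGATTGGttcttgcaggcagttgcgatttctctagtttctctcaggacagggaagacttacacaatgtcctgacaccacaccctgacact

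Of the 41 members, 35 had a promoter window in the table, and no window was listed for Ciita, Nlrc5, RT1-CE7, RT1-DMb, RT1-M2 and RT1-M4. The letters TGATTGG were searched on both strands of the 250 bases before the start and were found in 6.42% of all 33469 windows. They were present in 9 of 9 class II RT1 windows, in 8 of 18 class I heavy chain windows and in 0 of 8 windows of members without the RT1 prefix. In the class II windows the core was always on the strand of the gene, starting between 45 bases (RT1-Ba) and 119 bases (RT1-Db2) before the transcription start. Among the class I windows RT1-A1, RT1-A2, RT1-CE4, RT1-CE5 and RT1-S3 held it on the opposite strand, and RT1-N3, RT1-T24-1 and RT1-T24-3 on the strand of the gene. A second pattern, GAAA followed after any 2 bases by GAAA, the letters of an interferon response element, was found in 3.41% of all windows. It was present in 5 of 8 windows of the members without the RT1 prefix (B2m, Psmb10, Tap1, Tap2 and Tapbp), in 3 of 18 class I windows (RT1-N3, RT1-S2 and RT1-S3) and in 0 of 9 class II windows. The 2 patterns were counted separately. Members are near-identical copies of each other in part, so these windows are not independent, and a match is a description of letters, not a site in use.

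**Figure D1:**
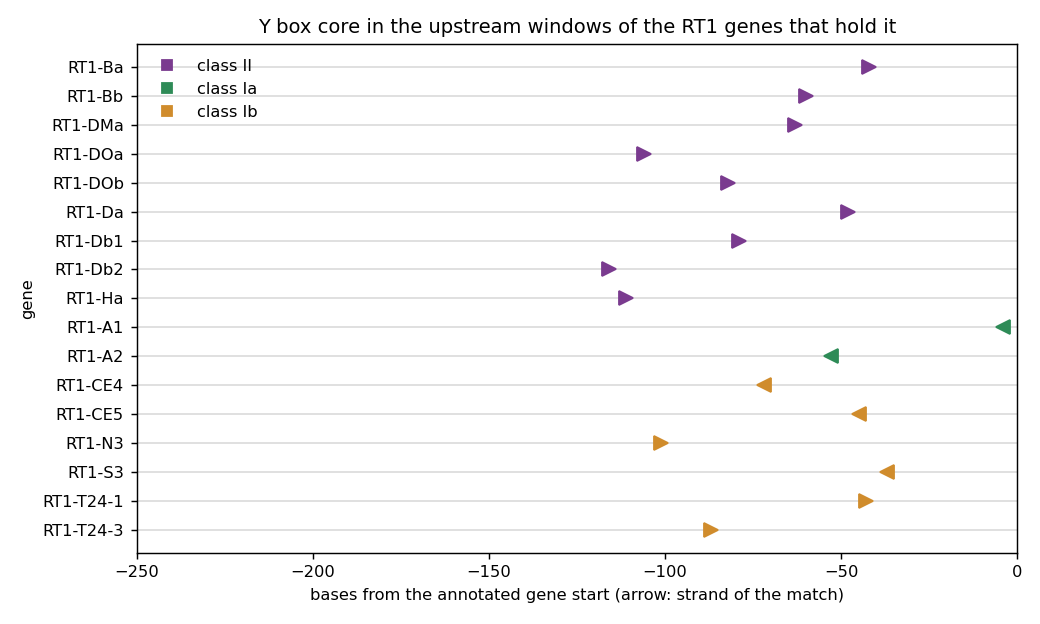
Position of the Y box core in the promoter windows of the RT1 members that hold it. The horizontal axis is the distance of the middle of the match from the RefSeq transcription start in bases. Arrows point along the strand of the match, and colours separate class II, class Ia and class Ib genes. All 9 class II windows hold it on the strand of the gene, with its first base between 119 and 45 bases before the start. Of the 8 class I windows 5 hold it on the opposite strand.

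After the limits on cells, 12779 barcodes with 98005495 unique molecular identifiers (UMIs, 1 per captured transcript) were kept at P1 and 12581 with 93080129 UMIs at P7, with medians of 6565 and 6878 UMIs per cell. These numbers of cells differ from those the study states. The libraries shared 60 barcodes. Cells were assigned by gates, each of which asks for at least 3 of a list of marker genes with at least 2 UMIs each, and cells that passed several gates were set aside as mixed (298 at P1 and 178 at P7). This gave 136 and 141 macrophages, 144 and 167 endothelial cells, 312 and 255 pericytes, 1811 and 3854 glia, 122 and 65 epithelial cells, and 128 neurons at P1 but 5 at P7, for which no comparison of ages was made. The remaining cells were split into Otor mesenchyme (7103 and 4705 cells, by Otor, Crym, Coch and Otos) and Dcn mesenchyme (1756 and 2601 cells, by Dcn, Gpc3, Col3a1 and Lum), and 947 and 588 cells stayed ungated. Neutrophil, lymphocyte, melanocyte and erythroid gates held 16 cells or fewer each per library. GEO labels both libraries as greater epithelial ridge cells, whereas most kept cells carried mesenchymal or glial markers and few passed the epithelial gate. The 10 macrophage markers summed to 24544 CPM (UMIs of a gene over all UMIs of the gate, scaled to a total of 1000000) in macrophages at P1 and 14217 CPM at P7, and to at most 8.40 CPM in the other gates at P1 and 41.2 CPM at P7. The 4 genes of the Otor list, which macrophages should lack, summed to 1860 CPM in the macrophage gate at P1 and 4579 CPM at P7. Whether such RNA from other cells played a part in the ratios between ages below was not tested. In a gate, fewer expressing cells and less RNA per cell can be told apart only where shares of cells are given.

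Of the 41 members, 37 had at least 1 UMI in the kept cells, and 21 reached 100 UMIs in at least 1 library. RT1-M2, RT1-M5, RT1-DMa and the class I regulator Nlrc5 were at 0 in both libraries, where 3 counts would be 0.0306 CPM at P1 and 0.0322 CPM at P7. Ciita, the class II regulator, had 1 UMI at P1 and 3 at P7, and Tap2, the partner of Tap1, had 0 and 1. Psmb8, an immunoproteasome subunit, had 7 and 10 UMIs, so neither Tap2 nor this subunit could be compared between the ages. The class I genes below 100 UMIs (RT1-CE1, RT1-CE3, RT1-CE7, RT1-M4, RT1-M6-1, RT1-M6-2, RT1-S2 and RT1-T24-1) had between 0 and 24 UMIs per library. RT1 genes are near-identical copies in a region that differs between haplotypes, and the reads were aligned to 1 reference, so the split of reads between RT1 genes is uncertain and a value for 1 heavy chain can hold reads of another.

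B2m, the light chain of every class I molecule, was the most abundant member, with 41216 UMIs in 10638 cells at P1 and 65081 UMIs in 11538 cells at P7. Among gates of at least 50 cells, to which the orders of levels below are limited, it was highest in macrophages and endothelium at both ages. The lymphocyte gate, with 1 cell per library, had 9 and 33 B2m UMIs and 11 and 13 heavy chain UMIs. At P1 it was 1868 CPM in macrophages, 1761 in endothelium, 1120 in pericytes, 516 in Dcn mesenchyme, 385 in glia, 348 in Otor mesenchyme, 186 in epithelium and 88.9 in neurons. The intervals of macrophages and endothelium overlapped at P1, and the highest gate was 21.0 times the lowest. At P7 the order was endothelium with 2155 CPM, macrophages with 1830, pericytes with 1381, Dcn mesenchyme with 854, Otor mesenchyme with 635, glia with 525 and epithelium with 389, and the first of these differed from the second beyond counting error. The 7 gates compared at P7 spanned 5.55-fold. Between the ages B2m hardly moved in macrophages (log2 of P7 over P1 was -0.03, interval -0.12 to 0.06). It was higher at P7 in endothelium (0.29, interval 0.22 to 0.36), pericytes (0.30), glia (0.45), Dcn mesenchyme (0.73), Otor mesenchyme (0.87) and epithelium (1.07, interval 0.82 to 1.31).

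The heavy chains, as the sum of the 21 RT1 class I genes, came to 16231 UMIs at P1 and 24040 at P7. Among gates of at least 50 cells, at P1 macrophages led with 907 CPM (interval 854 to 963), followed by endothelium with 611 CPM (575 to 649), epithelium with 249, pericytes with 242, Dcn mesenchyme with 181, glia with 152, Otor mesenchyme with 138 and neurons with 37.9. At P7 endothelium led with 850 CPM (805 to 896) ahead of macrophages with 747 CPM (697 to 800), and the intervals did not overlap at either age. The other gates at P7 were epithelium with 550 CPM, Dcn mesenchyme with 286, pericytes with 275, Otor mesenchyme with 234 and glia with 198. In macrophages the log2 ratio of heavy chains between the ages was -0.28 (interval -0.41 to -0.15), but its interval held 0 with mitochondrial UMIs under 10% (-0.11, interval -0.26 to 0.05) and with cells thinned to 2000 UMIs (-0.26, interval -0.55 to 0.02). Heavy chains were higher at P7 in endothelium (0.47, interval 0.36 to 0.59), Dcn mesenchyme (0.66), Otor mesenchyme (0.77) and epithelium (1.14, interval 0.93 to 1.35). In glia the ratio was 0.38, and in pericytes 0.19 with an interval that held 0 (-0.01 to 0.38). With RT1-CE4 left out, the remaining heavy chains came to 599 CPM in endothelium and 560 CPM in macrophages at P7, with overlapping intervals. Against all other cells of the library, with 5 CPM added to each level, the log2 ratio of heavy chains was 2.50 at P1 and 1.55 at P7 for macrophages, and 1.92 and 1.76 for endothelium. With a looser gate that asks for 1 UMI per marker, the endothelial ratios were 0.99 and 0.82. At least 1 heavy chain UMI was found in 95.6% of macrophages and 95.1% of endothelial cells at P1, and in 90.8% and 93.4% at P7, against 40.6% of P1 neurons, whose median depth of 19058.5 UMIs was more than that of either (7729.5 and 9889.5 UMIs).

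Light and heavy chain UMIs stood in a similar ratio in most gates. There were 2.06 B2m UMIs per heavy chain UMI in macrophages at P1 and 2.45 at P7, 2.88 and 2.54 in endothelium, 2.53 and 2.66 in glia, 2.53 and 2.71 in Otor mesenchyme, 2.85 and 2.99 in Dcn mesenchyme and 2.35 in P1 neurons. Pericytes had more light chain, with 4.63 and 5.02. Among gates of at least 50 cells, epithelium was the one in which heavy chain UMIs outnumbered those of B2m, with 0.745 B2m UMIs per heavy chain UMI at P1 and 0.706 at P7. UMIs were counted at 3′ ends and were not divided by gene length.

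**Figure D2:**
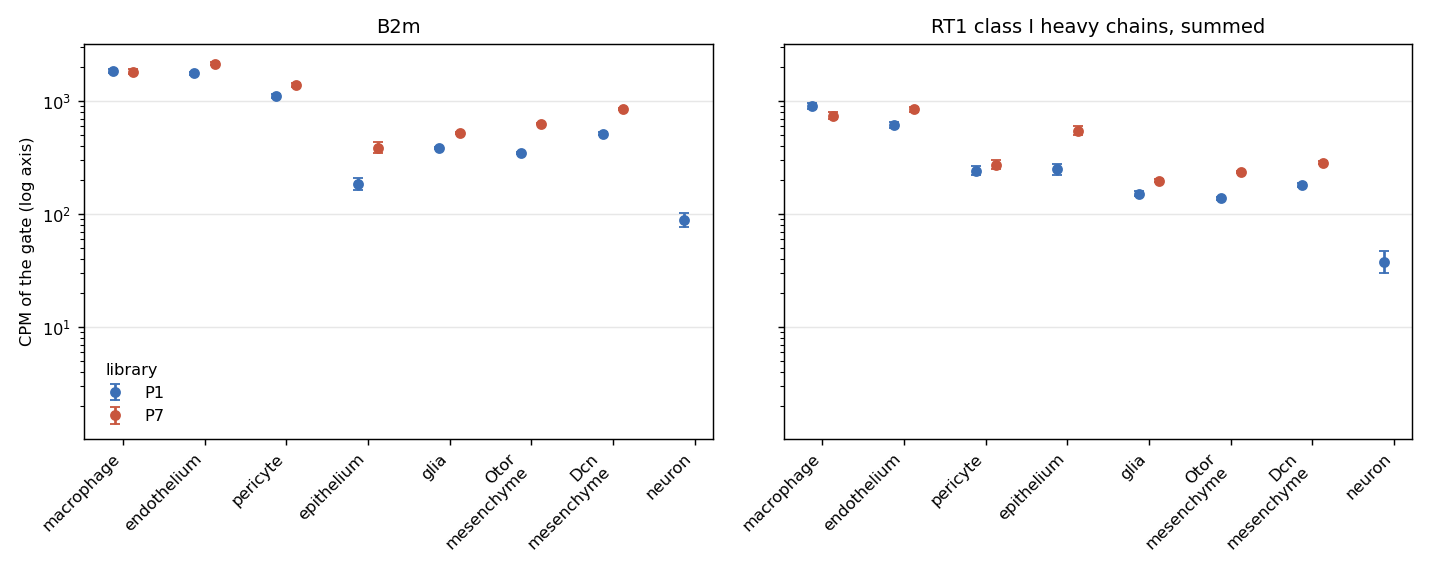
Level of B2m (one panel) and of the summed RT1 class I heavy chains (the other) in each gate at P1 (blue) and P7 (red), in CPM on a log axis, with bars for the 95% counting interval; each point is 1 library. Macrophages and endothelium sit above the other gates in both panels, B2m in macrophages is the same within counting error at both ages (1868 and 1830 CPM), and heavy chains in epithelium go from 249 to 550 CPM.

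Individual heavy chains differed in where they were found. RT1-CE4 (ENSRNOG00000039744), a class Ib gene, was the most abundant, with 9228 UMIs at P1 and 10463 at P7, and was found in every gate. Its level at P1 and P7 was 260 and 187 CPM in macrophages, 226 and 251 in endothelium, 154 and 149 in pericytes, 134 and 215 in epithelium, 116 and 133 in Dcn mesenchyme, 104 and 110 in glia, 80.6 and 90.2 in Otor mesenchyme and 23.0 in P1 neurons. It gave 68.6% of all heavy chain UMIs in glia, 63.8% in Dcn mesenchyme, 63.7% in pericytes, 60.7% in neurons, 58.5% in Otor mesenchyme and 53.8% in epithelium at P1, but 36.9% in endothelium and 28.7% in macrophages. At P7 its share was smaller in each of the 7 gates compared, with 55.6% in glia as the highest. Without RT1-CE4 the remaining heavy chains had a log2 ratio between the ages of -0.21 in macrophages, 0.64 in endothelium, 0.53 in pericytes, 0.87 in glia, 1.22 in Dcn mesenchyme, 1.33 in Otor mesenchyme and 1.54 in epithelium.

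RT1-CE10 (ENSRNOG00000050210), a class Ib gene, was the most abundant heavy chain in macrophages. It was at 397 CPM there at P1 (interval 362 to 435) and 290 CPM at P7 (259 to 324), a log2 ratio of -0.45 (interval -0.66 to -0.24), and made up 43.8% and 38.8% of their heavy chain UMIs. It was found in 81.6% of macrophages at P1 and 66.0% at P7, or 45.1% and 37.1% after each cell was thinned to 2000 UMIs. At P1 1 macrophage held 12.4% of the macrophages' RT1-CE10 UMIs, which was 58 UMIs. Against all other cells of the same library the log2 ratio, with 5 CPM added to each level, was 5.16 at P1 and 4.37 at P7. In epithelium RT1-CE10 went the other way, from 18.9 to 50.3 CPM, and in glia it went from 5.15 to 10.4 CPM. At P7 1 epithelial cell held 10 of the 43 RT1-CE10 UMIs of that gate. Without the richest epithelial cell of each library the levels were 17.0 and 39.5 CPM. The class Ia gene RT1-A2 was highest in macrophages, where its 110 CPM at P1 and 85.7 CPM at P7 were 12.1% and 11.5% of their heavy chain UMIs. The other class Ia gene, RT1-A1, was as high at P7 as at P1 in macrophages (62.9 and 63.8 CPM) and was higher at P7 in epithelium (34.1 and 71.4 CPM).

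RT1-T24-3 (ENSRNOG00000045924), a class Ib gene, had its highest level in endothelium. It was at 165 CPM in endothelium at P1 (interval 147 to 186) and 213 CPM at P7 (191 to 237), and gave 27.1% and 25.1% of endothelial heavy chain UMIs. It was found in 64.6% and 65.3% of endothelial cells, or 28.6% and 35.9% after thinning, and its log2 ratio to all other cells was 4.48 and 4.72. Pericytes, which share the vessel wall with endothelium, were next with 28.0 and 24.5 CPM, against 11.9 and 16.4 CPM in macrophages and 5.72 and 1.59 CPM in glia. The neighbouring family member RT1-T24-4 was also highest in endothelium but moved with age, from 33.3 CPM (interval 25.3 to 43.1) to 130 CPM (113 to 149), a log2 ratio of 1.97 (interval 1.54 to 2.41). Its share of endothelial cells with a UMI went from 29.9% to 43.7%, and from 3.57% to 20.9% after thinning. RT1-T24-4 was higher at P7 in other gates too, from 1.12 to 22.6 CPM in Otor mesenchyme, 1.18 to 19.1 CPM in Dcn mesenchyme and 0.327 to 5.13 CPM in glia. In macrophages it went from 2 to 25 UMIs, a log2 ratio of 3.75 with an interval of 1.74 to 6.87.

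Further class Ib genes were low at P1 and higher at P7 in mesenchyme, glia or epithelium. RT1-S3 went from 9.51 to 36.8 CPM in Otor mesenchyme, from 5.58 to 27.6 CPM in Dcn mesenchyme, from 27.3 to 104 CPM in epithelium and from 47.1 to 85.9 CPM in endothelium, where the log2 ratio was 0.87. RT1-CE5 went from 1.65 to 14.0 CPM in Dcn mesenchyme, from 1.10 to 6.79 CPM in Otor mesenchyme, from 1.06 to 7.93 CPM in glia and from 17.8 to 33.9 CPM in endothelium, and from 1 to 21 UMIs in pericytes. RT1-M3-1, of the M3 family that presents formylated peptides of bacteria and mitochondria, had a log2 ratio of 3.14 in Otor mesenchyme (1.20 and 10.5 CPM), 2.27 in glia and 1.79 in Dcn mesenchyme. RT1-A2 was likewise higher at P7 in glia (1.47 and 8.41 CPM), Otor mesenchyme (1.18 and 4.59 CPM) and Dcn mesenchyme (2.12 and 7.54 CPM). RT1-N3 did not follow them, with 20.1 and 18.8 CPM in endothelium and a log2 ratio of -0.13 in Otor mesenchyme, whose interval held 0 (-0.39 to 0.11). RT1-N2 was highest in mesenchyme and epithelium, with 14.2 and 23.1 CPM in Otor mesenchyme, 14.4 and 21.9 CPM in Dcn mesenchyme and 24.3 and 38.6 CPM in epithelium, against at most 8.21 CPM in the other gates of at least 50 cells.

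**Figure D3:**
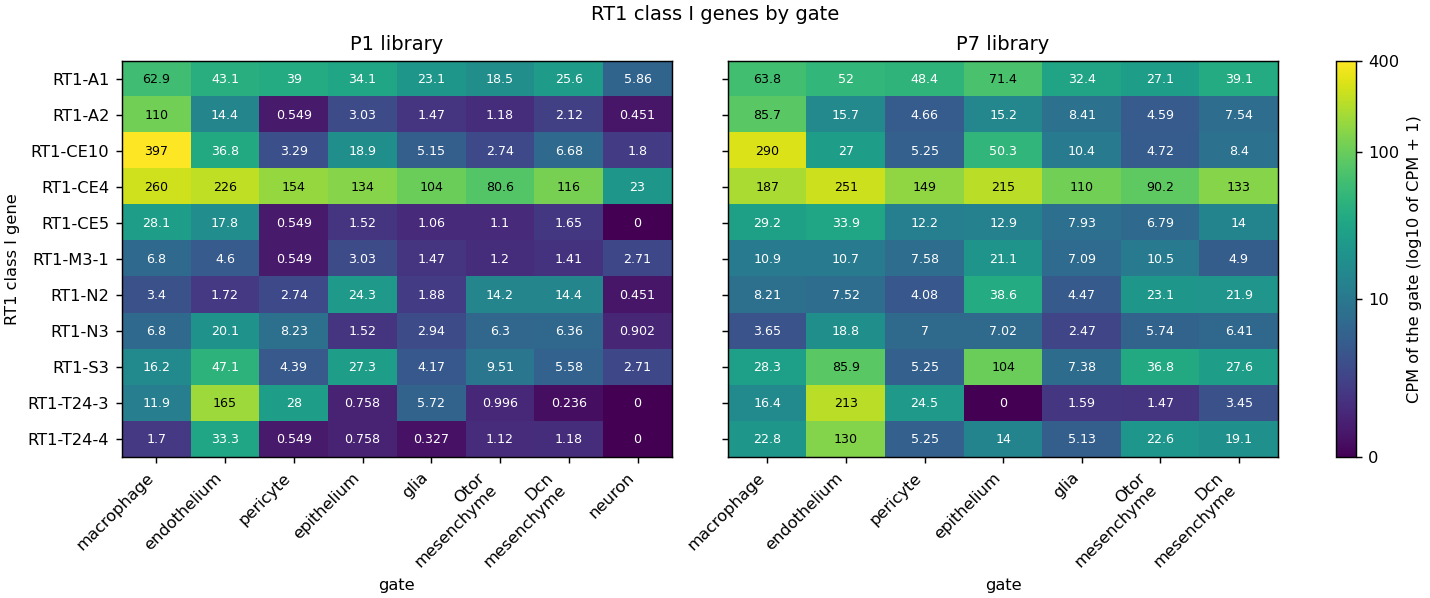
Level of the 11 RT1 class I genes with at least 100 UMIs in a library, in each gate at P1 (8 gates) and P7 (7 gates), as a heat map of CPM on a log10(CPM + 1) colour scale with 1 library per age. RT1-CE4 is present in every column, RT1-CE10 stands out in macrophages (397 and 290 CPM), RT1-T24-3 in endothelium (165 and 213 CPM), and RT1-T24-4 and RT1-S3 are lighter in the P7 columns than in those of P1.

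The members that make and load peptides were measured next. Psmb9, the interferon-inducible immunoproteasome subunit that takes the place of Psmb6, was highest in macrophages (89 UMIs or 75.7 CPM at P1 and 103 UMIs at P7, log2 ratio 0.31). It was higher at P7 in endothelium (18.4 and 40.1 CPM, log2 ratio 1.13), pericytes (4.39 and 16.3 CPM), glia (4.66 and 14.9 CPM), Otor mesenchyme (5.78 and 22.6 CPM, log2 ratio 1.97) and Dcn mesenchyme (4.95 and 16.0 CPM). As a share of Psmb9 and Psmb6 UMIs together, Psmb9 took 24.9% in macrophages at P1 (interval 20.5 to 29.7) and 34.1% at P7 (28.8 to 39.8), and 8.53% and 16.2% in endothelium, whose intervals (5.91 to 11.8 and 12.7 to 20.2) did not overlap. In the other gates this share was at most 2.55% at P1 and between 3.83% and 9.22% at P7. Psmb10, which takes the place of Psmb7, was spread more evenly, with 202 and 201 CPM in macrophages, 94.8 and 122 CPM in endothelium and 71.2 and 89.7 CPM in Otor mesenchyme. Its share beside Psmb7 was 67.2% and 68.1% in macrophages, 50.5% and 50.1% in endothelium, 26.9% and 27.0% in glia and 13.9% in P1 neurons, and so varied between gates more than between ages. Psmb8 had at most 3 UMIs in a gate while Psmb5, the subunit it takes the place of, had between 361 and 25401.

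Tap1 was low, at 17.0 and 22.8 CPM in macrophages and at 18.4 and 11.3 CPM in endothelium, where the log2 ratio of -0.70 had an interval that held 0 (-1.62 to 0.17). In Otor mesenchyme Tap1 went from 4.94 to 10.1 CPM (log2 ratio 1.03) and in Dcn mesenchyme from 4.79 to 8.94 CPM (0.90). Tapbp, the tapasin that holds empty class I molecules at the transporter, was at 20.4 and 31.0 CPM in macrophages, 16.7 and 22.6 CPM in endothelium, 13.6 and 26.9 CPM in epithelium and 7.75 and 13.2 CPM in Otor mesenchyme.

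Counted over the members, the gap between macrophages and the rest of the cochlear duct lay past a fold of 2 upward for 13 of the 17 members with at least 10 CPM at P1 and for 11 of 20 at P7, with none downward, where 11.3% and 9.94% of all genes were that much higher in macrophages. The median log2 ratio of these members was 2.20 at P1 against -0.32 over all genes. For endothelium 11 of 16 members were higher at P1 and 7 of 17 at P7 (all genes 9.46% and 8.56%), and 2 and 1 were lower. Pericytes had 2 of 8 and 2 of 14 members higher (all genes 7.19% and 6.74%) and 2 and 4 lower. P1 neurons had 6 of 8 members lower by more than that fold and none higher (17.3% of all genes lower). A member can pass the limit of 10 CPM through the gate alone, so these counts describe the genes and are not evidence of their own.

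Between the ages the same counting gave, among members with 20 UMIs or more at the age with the higher count, 5 of 17 higher and none lower at P7 past a fold of 2 in macrophages (all genes 14% higher, 5.98% lower), 2 of 14 and none in endothelium (10.8% and 6.13%) and 2 of 7 and none in pericytes (8.4% and 6.13%). The share of members higher at P7 was larger in glia with 12 of 21, and 1 lower (all genes 13% and 10.3%), epithelium with 4 of 8 and none (11.2% and 8.87%), Otor mesenchyme with 8 of 21 and 4 lower (13.8% and 9.44%) and Dcn mesenchyme with 7 of 18 and 1 lower (10.9% and 10.6%). Median log2 ratios of the members were 0.42 in macrophages, 0.33 in endothelium, 0.31 in pericytes, 1.25 in glia, 1.02 in epithelium, 0.76 in Otor mesenchyme and 0.67 in Dcn mesenchyme, against 0.07 to 0.12 over all genes. In endothelium, where 2 of 14 members lie beside 10.8% of all genes, the members' share was near that of all genes. In glia and Otor mesenchyme the counts include class II genes that came from single cells, as given below. Of the 5 members higher in macrophages, 4 were class II genes or Cd74, which rested on few cells. The other was RT1-T24-4, with 2 and 25 UMIs. The 1 lower member in Dcn mesenchyme was Cd74, with 40 of its 47 UMIs at P1 in 1 cell.

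**Figure D4:**
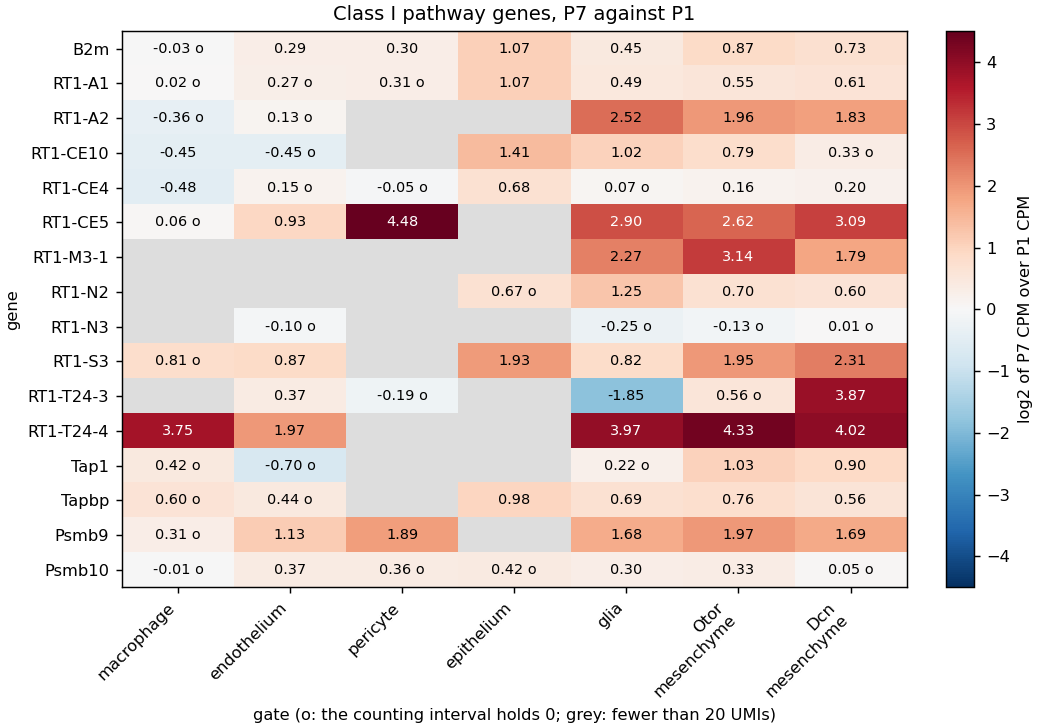
Log2 ratio of P7 to P1 for 16 genes of the class I pathway (rows) in 7 gates (columns), from 1 library per age. Red is higher at P7 and blue is lower, a circle marks a ratio whose 95% counting interval holds 0, and grey marks fewer than 20 UMIs in the higher library. RT1-T24-4, RT1-CE5, RT1-M3-1, RT1-S3 and Psmb9 are red across the mesenchyme columns, and RT1-CE10 and RT1-CE4 are blue in macrophages (-0.45 and -0.48).

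Class II genes had another distribution, being found at high level in a small number of cells. The RT1 class II genes and Cd74 had 2214 UMIs at P1 and 3695 at P7, of which macrophages held 45.3% and 55.0%, although they held 1.20% and 1.18% of all UMIs. Their level in macrophages was 854 CPM at P1 (interval 802 to 908) and 1853 CPM at P7 (1774 to 1936), a log2 ratio of 1.12 (interval 1.01 to 1.23). RT1-Da (ENSRNOG00000032844), the alpha chain of the D molecule, went from 199 to 462 CPM, its beta chain RT1-Db1 from 124 to 244 CPM, RT1-Ba, the alpha chain of the B molecule, from 75.7 to 181 CPM, and its beta chain RT1-Bb from 5 to 42 UMIs. The invariant chain Cd74 (ENSRNOG00000018735) went from 449 to 925 CPM, and a Cd74 UMI was found in 12.5% of macrophages at P1 and 18.4% at P7, or in 9.02% and 17.4% after thinning, against at most 1.64% unthinned in the other gates. With a limit of 10% on mitochondrial UMIs, which left 62 macrophages at P7, the thinned share at P7 was 29.8%. Endothelium had, with macrophages, the highest B2m and summed heavy chain levels among gates of at least 50 cells. Of class II, endothelium had 2 UMIs at each age and none of RT1-Da, RT1-Db1 or RT1-Ba. There 3 counts would be 1.72 CPM at P1 and 1.88 CPM at P7. The partners that load and edit class II peptides were near 0, with RT1-DMa at 0, RT1-DMb at 1 and 5 UMIs and RT1-DOb at 0 and 5 UMIs. RT1-Db2 had 3 and 0 UMIs and RT1-Ha 4 and 12 UMIs.

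The macrophage values rested on few cells. No class II UMI was found in 118 of 136 macrophages at P1 (86.8%) and in 110 of 141 at P7 (78.0%). With a limit of 10 class II UMIs, set after the values were seen, 7 macrophages were class II rich at P1 (5.15%, interval 2.09 to 10.3) and 19 at P7 (13.5%, interval 8.31 to 20.2). The 7 macrophages at P1 held 407, 267, 91, 77, 71, 41 and 26 class II UMIs, and the next had 5. Without the richest macrophage of each library the level was 511 CPM at P1 and 1539 CPM at P7, a log2 ratio of 1.59 (interval 1.45 to 1.73). Without all cells of 10 or more class II UMIs, 24 UMIs were left in each library, which was 21.3 and 26.0 CPM with a log2 ratio of 0.29 whose interval held 0 (-0.59 to 1.17). Since these cells were chosen by their class II UMIs, which came to 980 of 1004 macrophage class II UMIs at P1 and 2008 of 2032 at P7, that remainder follows from the choice and is given as a description. As the mean of the levels of single macrophages, or with each cell thinned to 2000 UMIs, the log2 ratio was 0.43 and 0.68. The 10% of macrophages with the most class II held 99.6% and 95.7% of their class II UMIs, whereas the 10% with the most B2m held 26.4% and 27.9% of their B2m UMIs.

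**Figure D5:**
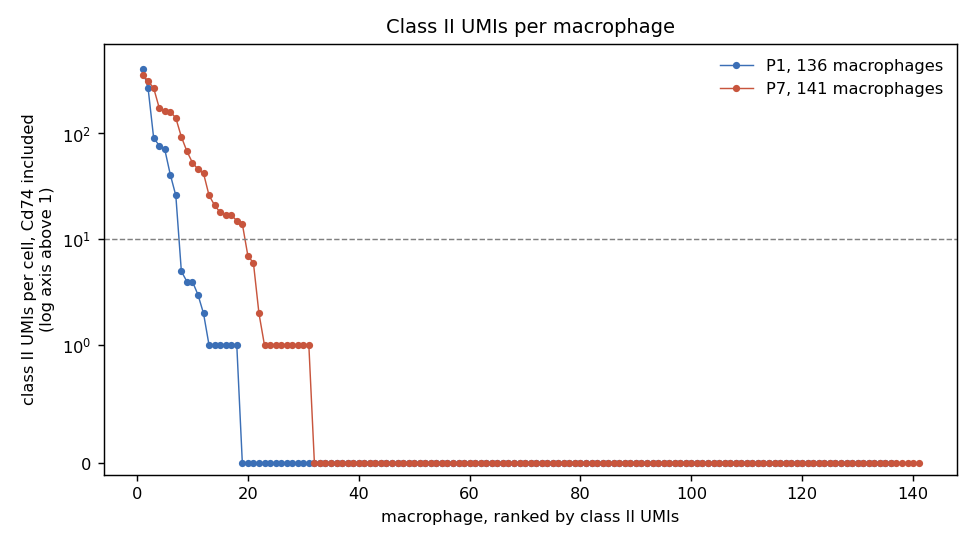
Class II UMIs (RT1 class II genes and Cd74) per macrophage, with macrophages ranked from the highest, at P1 (blue, 136 cells) and P7 (red, 141 cells), on a log axis. The dashed line marks 10 UMIs, above which lie 7 cells at P1 and 19 at P7, and most macrophages have no class II UMI.

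Over all kept cells 16 were class II rich at P1 and 22 at P7, and they held 90.5% and 89.0% of all class II UMIs. At P1 they were 7 macrophages, 5 ungated cells, 2 Otor mesenchyme cells, 1 Dcn mesenchyme cell and 1 mixed cell, with 17 to 407 class II UMIs and a median of 69.5. At P7 they were 19 macrophages, 2 ungated cells and 1 cell in the glial gate, with 14 to 703 UMIs and a median of 80.5. RT1-Da was found in all of them and RT1-Ba in 14 of 16 and 22 of 22, while RT1-Db1 was found in 14 of 16 and 14 of 22 and RT1-Bb in 4 and 11. Tyrobp, a signalling adaptor of myeloid and natural killer cells, was present in 14 of 16 and 22 of 22. Ms4a1 and Cd79b, which mark B cells, were together present in 2 of the P1 cells and none of the P7 cells, and a marker of the dendritic cell list was present in 5 of 16 and 6 of 22. The glia-gated cell with 703 class II UMIs had 26360 UMIs in all and held 3 UMIs of Xcr1 and 1 of Clec9a, which mark a class of dendritic cells, next to 66 of Otor. It alone gave 19.0% of all class II UMIs of the P7 library. Ciita was detected in 0 and 2 of the class II rich cells.

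Class II rich macrophages differed from the other macrophages of their library in class I and in markers that the choice did not use, which is given as a description over cells of 1 library. Their median B2m level per cell was 4346 CPM against 1691 CPM at P1 and 2544 CPM against 1740 CPM at P7, and it lay above the median of the others in 7 of 7 and 16 of 19 cells. For heavy chains the medians were 2108 against 612 CPM and 1047 against 493 CPM, above in 6 of 7 and 14 of 19. Lyz2, a lysozyme of monocytes and macrophages, lay above in 7 of 7 and 19 of 19. Mrc1, the mannose receptor of resident macrophages, lay below in 6 of 7 and 17 of 19, with medians of 453 against 1820 CPM and 216 against 1173 CPM. The other macrophage markers differed less, and every log2 ratio of their summed levels whose interval did not hold 0 was below 0. It was -0.52 at P1 and -0.32 at P7 for the complement gene C1qb. For C1qa it was -0.35 and -0.63, and for C1qc -0.71 and -0.53. Cell by cell, C1qb was split more evenly, below the median of the others in 4 of 7 and 11 of 19 class II rich cells. In summed level Csf1r had -0.21, with an interval that held 0, and -0.78 (interval -1.04 to -0.52). Aif1 had -0.13, with an interval that held 0, and -0.15, whose interval ended just below 0. The last 4 markers went in both directions, with intervals that held 0 at both ages. These were Ms4a7 (0.95 and 0.14), Adgre1 (0.05 and 0.10), Cd68 (-0.21 and 0.23) and Cx3cr1 (-0.21 and -0.05). Median depth was 7729 UMIs in class II rich and 7730 in the other macrophages at P1, and 8641 and 7054.5 at P7.

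Outside antigen-presenting cells 2 class II genes were found without their partners. RT1-Db1 was at 10.8 CPM in P1 neurons (interval 6.94 to 16.1), from 24 UMIs in 21 of 128 cells, where RT1-Da was at 0 and Cd74 had 1 UMI. The other gates without macrophages were between 0 and 2.27 CPM at P1, among them glia with 1.47 CPM. Mixed cells at P1, of which 243 of 298 passed both the glial and the neuronal gate, had RT1-Db1 at 7.23 CPM (interval 5.14 to 9.88), from 32 of the 297 that were not class II rich. Median depth was 19058.5 UMIs in neurons and 19364 in mixed cells, above the other gates compared. After thinning to 2000 UMIs 0 of 117 neurons had an RT1-Db1 UMI. At 10.8 CPM so few UMIs per cell leave little RT1-Db1 to find, so no conclusion is drawn from that 0. RT1-DOa, a chain of the DO molecule that modulates class II loading, had 99 UMIs in 89 of 4705 Otor mesenchyme cells at P7, against 4 UMIs in 7103 cells at P1, a log2 ratio of 5.16 (interval 3.76 to 7.07). In glia it went from 0 to 25 UMIs, and its partner RT1-DOb stayed at 0 and 5 UMIs over the whole libraries. Of RT1-DOa UMIs 33.3% at P1 and 2.29% at P7 were in class II rich cells, whereas for RT1-Da these shares were 98.2% and 95.7%. Both genes are copies within the RT1 region, and which transcript the reads came from was not tested.

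Few other genes of the pathway, taken as whole lists, passed a fold of 2 in macrophages, where 14% of all genes were that much higher at P7 and 5.98% lower. Of 14 antigen processing genes with at least 20 UMIs none was higher and 1 was lower, the lysosomal protease Ctss (139 and 67.5 CPM). Of 14 regulators 1 was higher, Nfkb1 (16.2 and 39.2 CPM). Of 4 interferon-induced genes 2 were higher, Ifitm3 (46.8 and 118 CPM) and Ifi27 (194 and 431 CPM). The counts for antigen processing and regulators were at or below the share of all genes or rested on 1 gene. Neither the 3 constitutive proteasome subunits nor the 1 costimulation gene that could be compared passed the fold. The interferon gamma receptor chain Ifngr1 did not pass the fold, at 343 and 643 CPM in macrophages, a log2 ratio of 0.91. Among the other regulators Jak1 had -0.98 (interval -1.42 to -0.56), and Ifngr2 had 0.17 with an interval that held 0. Of the 14 regulators 6 had a ratio above 0, and their median was -0.07 against 0.10 over all genes.

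In endothelium 1 of 13 antigen processing genes was higher, the lysosomal protease Lgmn (28.7 and 59.6 CPM), and 2 of 12 regulators were higher, the class II factor Rfxank (10.3 and 21.9 CPM) and Nfkb1 (31 and 124 UMIs, log2 ratio 2.13). These counts were near the 10.8% of all genes higher at P7 in endothelium. Of 8 interferon-induced genes 4 were lower past the fold and none higher, where 6.13% of all genes were lower. The most abundant of the 8 did not pass, Ifi27 with 1765 and 1830 UMIs and Ifitm3 with 736 and 694. Those that passed were Bst2, from 138 to 44 UMIs, Isg15, from 40 to 15, Mx2, from 39 to 4, and Oas1a, from 33 to 3. At P1 1 endothelial cell held 17 of the Isg15 UMIs and 1 held 17 of the Mx2 UMIs. Without the richest cell of each library Isg15 was at 13.3 and 8.19 CPM and Mx2 at 12.7 and 1.90 CPM. Oas1a was then at 15.6 and 0.632 CPM and Bst2 at 76.5 and 26.1 CPM. In the endothelial gate the summed class I heavy chains and Psmb9 were higher at P7, as given above. Tap1 was not, with a log2 ratio of -0.70 whose interval held 0. Whether these differences are linked was not tested.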

How the data were processed

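Per the labels, cochlear duct cells of Sprague-Dawley rats at P1 and P7 were captured with the 10x Chromium 3′ kit (V3) and sequenced as 1 library per age. The authors aligned reads to the rat genome rn6 with Cell Ranger (version 3.1.0 in the matrix headers) after bcl2fastq, and the deposited values are raw UMI counts per gene and barcode, made before their filters and Seurat 3.1.1 clustering. Strand and multi-mapping settings were not given in the sources used here.

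Kept cells had 500 to 5000 genes, 500 UMIs or more and less than 25% of their UMIs from 13 mitochondrial genes. Gates used 10 marker lists (at least 3 markers with at least 2 UMIs) and then the higher of 2 mesenchyme lists. No clustering and no doublet caller was run, and free RNA was not removed. Counts were summed per gate and library and scaled to CPM with exact Poisson intervals. Ratios of P7 to P1 have exact conditional binomial intervals and no pseudocount, and ratios of a gate to the other cells use a pseudocount of 5 CPM. Shares have Clopper-Pearson intervals (95%), also after thinning to 2000 UMIs. Ratios between ages needed 50 cells in both libraries. Members without the RT1 prefix, class II members and class I members with at least 100 UMIs in a library were named. Other pathway genes came from lists for antigen processing, proteasome, regulators, interferon response and costimulation, with values for those past a fold of 2 in macrophages or endothelium with at least 20 UMIs. Some listed genes that did not pass the fold were also given with values. The members and lists were chosen with earlier results of these data known. Only the ratio between ages and its interval were tested on simulated data, drawn as Poisson counts from summed gates. Such counts do not clump in single cells as the class II UMIs did, so the simulation does not cover that. Promoter windows came from RefSeq (GRCr8). Computation used Python 3.11.15 with numpy 2.4.6, scipy 1.17.1, pandas 2.3.3 and matplotlib 3.10.9. Alternatives were other gates, limits on cells, scalings and thinning, and, chosen after seeing the data, leaving out RT1-CE4 or the richest macrophage.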

Additional observations from a re-analysis of the deposited data

Results flagged for a closer look

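Several ratios between the ages had opposite signs in a pair of gates of the same libraries, with counting intervals that did not hold 0. None of these differences was tested across samples, since each age has 1 library. Heavy chains were higher at P7 in epithelium (log2 ratio 1.14) and lower in macrophages (-0.28), a difference of 1.42. The same was seen for RT1-CE10 (1.41 and -0.45, a difference of 1.86) and RT1-CE4 (0.68 and -0.48, a difference of 1.16). For RT1-CE10, 10 of the 43 UMIs of epithelium at P7 were in 1 cell. RT1-T24-3 was higher in Dcn mesenchyme (3.87) and lower in glia (-1.85), a difference of 5.72, and 15 of the 64 UMIs of Dcn mesenchyme at P7 were in 1 cell.

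The other opposite signs were in class II genes and rested on single class II rich cells. Between glia and Otor mesenchyme the ratios were 5.33 and -4.08 for RT1-Ba (a difference of 9.41), 4.53 and -1.94 for RT1-Da (6.47) and 2.21 and -1.89 for RT1-Db1 (4.10). Between glia and Dcn mesenchyme they were 6.98 and -2.29 for Cd74 (9.27) and 3.84 and -1.0 for class II genes with Cd74 (4.84). The glial values at P7 hold the 1 cell with 703 class II UMIs, the Otor mesenchyme values at P1 a cell with 303, and the Dcn mesenchyme values at P1 a cell with 68.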

How the results depend on the processing

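Of 73 alternatives computed, 41 stayed within the counting interval, 32 moved outside it and 0 changed sign. For the class II ratio between ages in macrophages (1.12) the values were 0.76 with 1 UMI per marker, 0.80 with 4 markers, 0.84 with mixed cells kept, 1.73 with mitochondrial UMIs under 10%, 0.94 with all barcodes, 0.43 as a mean of per-cell CPM, 0.68 thinned and 1.59 without the richest macrophage. For heavy chains in macrophages (-0.28) they were -0.62 with 1 UMI per marker and -0.11 with mitochondrial UMIs under 10%, whose interval held 0 (-0.26 to 0.05). For heavy chains in endothelium (0.47) they were 0.61 with all barcodes and 0.64 without RT1-CE4. For endothelium against the other cells they were 0.99 (1 UMI per marker), 1.76 (all barcodes) and 2.46 (without RT1-CE4) at P1, in place of 1.92. At P7, in place of 1.76, they were 0.82 (1 UMI per marker), 1.89 (4 markers), 1.67 (mitochondrial UMIs under 10%), 1.99 (thinned) and 2.08 (without RT1-CE4). The share of class II UMIs in macrophages at P1 (45.3%) was 62.2% (1 UMI per marker), 43.0% (all barcodes), 48.3% (mean CPM), 48.5% (thinned) and 33.0% (without the richest macrophage). At P7 (55.0%) it was 67.4% (1 UMI per marker), 45.3% (4 markers), 53.1% (mitochondrial UMIs under 10%), 59.9% (mean CPM), 62.0% (thinned) and 50.2% (without the richest macrophage). The thinned share of P7 macrophages with Cd74 (17.4%) was 29.8% with mitochondrial UMIs under 10%. The cause of these moves was not tested. With 1 UMI per marker the endothelial gate held 392 and 432 cells in place of 144 and 167. A total without mitochondrial, ribosomal and haemoglobin genes moved the log2 ratios of all genes by -0.12 (epithelium) to 0.01 (macrophages). Scaling gives no value for the thinned Cd74 share, nor the total for the share of class II UMIs. No paired analysis was possible because each age has 1 library. Tap2, Psmb8, Ciita and Nlrc5 had too few UMIs to be compared, and the cause of their low counts was not tested.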
